A study of Mus musculus with 2 samples.

Results

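The AP-1 transcription factor genes Fos, Fosb, Fosl1, Fosl2, Jun, Junb and Jund were examined for chromatin regions recovered by CUT&RUN for Otp (Orthopedia), a homeodomain protein of hypothalamic neurons. These 7 of 21887 protein-coding genes were chosen by family name, after Jun and Fos had been seen among the genes with an Otp region at an end. What follows is therefore a description, and no test was applied. Regions were selected on their position alone, as those whose summit (the base of highest signal) lay inside a member or within 50 kb of it. This gave 20 of the 11379 regions of the Otp list and 0 of the 291 regions of the IgG list. The series asks whether Otp binds the promoter of the melanocortin receptor gene Mc4r. Both groups used nuclei of wild-type mice, adult by the series' design text, from the hypothalamic paraventricular nucleus (PVN). One group is the library made with the Otp antibody and the other is the control library made with IgG, an antibody with no target. Each group has 1 library, and differences between the groups therefore have no replicate check. Neither the number of animals behind a library nor their exact age is given in the sources used here. The labels name the cells neurons, while the protocol describes isolation of nuclei and no sorting step.

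AP-1 is a dimer of leucine zipper proteins that binds DNA at a short palindrome. Fos proteins pair with Jun proteins, whereas Jun proteins can also pair with each other. Most of these genes are immediate early genes, transcribed within minutes of a stimulus. Fos is the common marker of recently active neurons, in the PVN as elsewhere, and is driven both by its promoter and by neuronal enhancers that lie outside the gene. In CUT&RUN an antibody brings a nuclease to chromatin, and the DNA it cuts free is sequenced, so that a called region marks where cutting was concentrated.

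RefSeq promoter windows of build GRCm38.p6 (mm10), from 250 bases before the annotated start to 50 after it, were available for 6 of the 7 genes, all but Fosl1. An Otp region overlapped the window of 3 of them, Fos, Jun and Junb. Among all protein-coding genes with a window, 26.9% had an Otp region over one. These 3 sequences are shown because they hold the regions at the start of these genes, and that of Jund because its region lay at the other end of the gene. Each reads 5′ to 3′ on the transcribed strand. Capitals mark the bases inside the deposited Otp region. They lie at chr12:85473640-85473939 (forward strand), chr4:95052173-95052472 (reverse), chr8:84978699-84978998 (reverse) and chr8:70697489-70697788 (forward), in that order.
Fos: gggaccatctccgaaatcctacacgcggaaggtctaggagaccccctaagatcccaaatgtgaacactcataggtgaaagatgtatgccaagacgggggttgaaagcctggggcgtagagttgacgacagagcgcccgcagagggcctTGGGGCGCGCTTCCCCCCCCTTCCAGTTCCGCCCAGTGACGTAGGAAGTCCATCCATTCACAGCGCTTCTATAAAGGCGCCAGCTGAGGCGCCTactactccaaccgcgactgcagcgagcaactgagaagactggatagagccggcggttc
Jun: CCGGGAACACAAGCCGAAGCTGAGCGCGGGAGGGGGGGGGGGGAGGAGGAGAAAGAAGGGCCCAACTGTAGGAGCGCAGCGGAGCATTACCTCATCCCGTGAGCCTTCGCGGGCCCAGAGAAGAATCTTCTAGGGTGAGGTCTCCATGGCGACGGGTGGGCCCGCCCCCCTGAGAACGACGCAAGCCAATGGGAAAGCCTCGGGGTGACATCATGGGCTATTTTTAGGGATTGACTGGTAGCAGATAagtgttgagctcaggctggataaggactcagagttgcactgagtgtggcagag
Junb: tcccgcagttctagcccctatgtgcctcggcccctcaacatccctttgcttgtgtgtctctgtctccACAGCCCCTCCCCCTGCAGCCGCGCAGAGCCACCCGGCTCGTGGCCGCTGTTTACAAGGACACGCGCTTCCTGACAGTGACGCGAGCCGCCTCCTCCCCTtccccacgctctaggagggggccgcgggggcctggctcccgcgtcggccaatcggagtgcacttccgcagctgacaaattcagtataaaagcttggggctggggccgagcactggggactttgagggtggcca
Jund: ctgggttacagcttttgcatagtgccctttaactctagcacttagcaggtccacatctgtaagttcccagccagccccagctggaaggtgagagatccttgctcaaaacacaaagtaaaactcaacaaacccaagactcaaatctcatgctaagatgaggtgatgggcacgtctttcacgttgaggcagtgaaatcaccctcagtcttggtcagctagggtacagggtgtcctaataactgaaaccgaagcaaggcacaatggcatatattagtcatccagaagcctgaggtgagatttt

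In the Fos window, 94 bases lay inside the region. These held TGACGT, the core of the cyclic AMP response element through which CREB acts on Fos, at positions -66 to -61, with the start base as 0. They also held the TATA box letters TATAAA at -33 to -28 and a GC box (GGGCGG, on the opposite strand) at -74 to -69. Of all 21263 windows of protein-coding genes, 8.49% held TGACGT on either strand, 12.6% held TATAAA and 46.2% held GGGCGG. In the Jun window, 247 bases lay inside the region. They held TGACATCA, the site through which AP-1 and ATF proteins act on the Jun promoter, at -45 to -38 (3.66% of windows), CCAAT at -65 to -61 (38.2%) and GGGCGG on the opposite strand at -89 to -84. In the Junb window, 100 bases lay inside the region, and of the motifs searched none fell there, while CCAAT at -36 to -32 and TATAAA at 0 to 5 lay outside it. The homeodomain palindrome TAATTA was found in none of the 6 windows (4.53% of all windows hold it). Its core TAAT, which TAATTA contains, was found at -165 to -162 in Jun, inside the region on the opposite strand, and in Jund (51.8%). Neither the full element TGACGTCA (2.23%), of which TGACGT is a part, nor the AP-1 site TGANTCA (6.99%) nor the CArG box (1.52%) was found in the 6 windows. A match describes letters and not a binding site, and no match refers to this window alone.

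Otp regions lay at an end of 4 of the 7 genes, within 1 kb of either end: Fos, Jun, Junb and Jund. Over all protein-coding genes the share was 27.2%, and the mean share over the length classes of the 7 genes was 23.8%. No IgG region lay at an end of any member, against 0.379% of all genes, a share so low that 0 of 7 says little. Otp regions lay within 50 kb of 6 members, all but Fosl2, against 63.6% of all genes, and IgG regions of none, against 1.72%. Of the 20 regions, 4 lay at an end of the member, 2 inside it, 5 outside protein-coding genes, 5 at an end of another such gene and 4 inside another. Counting members and other genes alike, 45% lay at a gene end, 30% inside and 25% outside, beside 48.7%, 25.6% and 25.8% of all nuclear Otp regions, a make-up close to that of the whole list. None of the 20 overlapped an IgG region by 1 base or more, which with an exact 95% binomial interval allows a share of up to 16.8%. In the whole Otp list 2.46% overlapped one, so 0 of 20 does not set these regions apart. Their widths ran from 74 to 398 bp with a median of 145 bp, beside 131 bp in the whole Otp list. The fold enrichment is the authors' value at the summit over the local background, taken here as having 1 tag added to both. It is thus not a plain ratio of tags. Its median was 6.39 (range 4.33 to 12.4), beside 6.97 in the whole list. The pileup at the summit, the number of overlapping tags worked out from the deposited values, was 10 to 30 with a median of 15. Over the regions of the whole Otp list with a solved value, the median was 13.

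**Figure D1:**
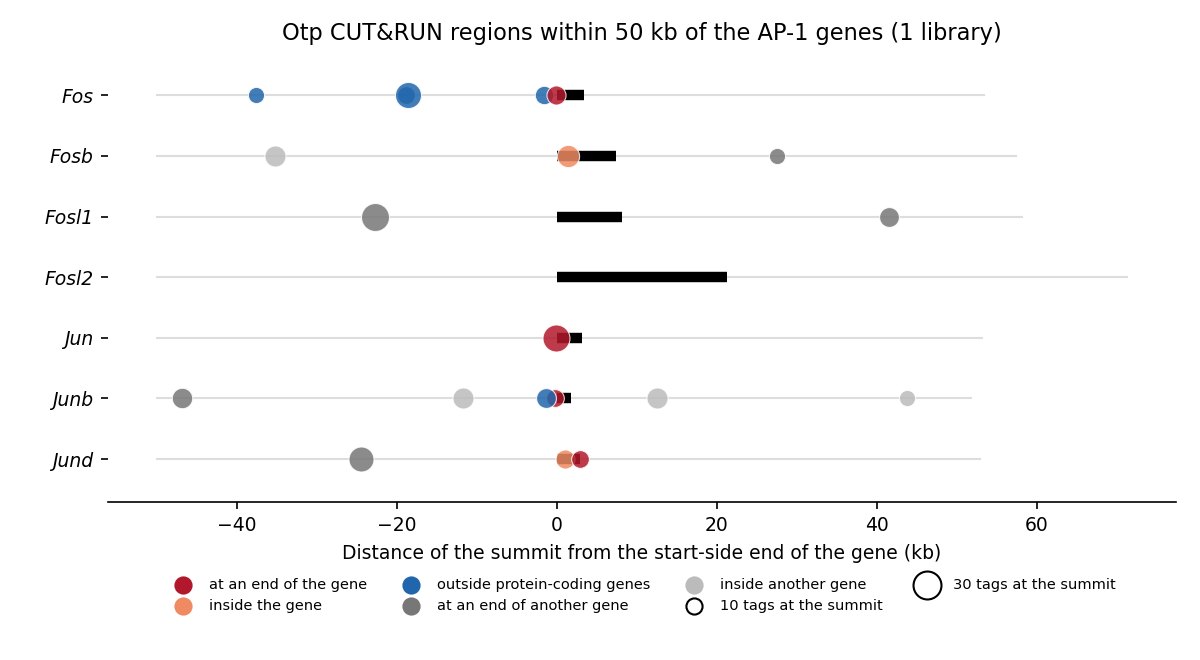
Otp regions around the 7 AP-1 genes. The x axis gives the distance in kb of each summit from the end of the gene where transcription starts (Fosl1, with no strand in the table, is drawn in genome order), black bars are the genes, and circles are regions of the 1 Otp library with area proportional to tags and colour by place. Fos has 5 regions, all at or upstream of its start, Jun has 1 at its start, and Fosl2 has none.

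Fos (gene ID 14281, chr12:85473890-85477274, forward strand, 3.38 kb), whose protein is the activity-induced partner in AP-1, had 5 Otp regions. All lay at or upstream of the start and none inside or downstream of the gene. The region at the start, chr12:85473788-85473881, had its summit 43 bp upstream with 14 tags (95% Poisson interval 7.65 to 23.5), a fold enrichment of 6.90 and a −log10 q of 7.81. A second, at chr12:85472133-85472311, lay 1610 bp upstream with 13 tags (6.92 to 22.2). The region with the most tags at Fos was not at the promoter. It lay 18.5 kb upstream at chr12:85455187-85455584, was 398 bp wide, the widest near any member, and had 26 tags (17.0 to 38.1), a fold enrichment of 9.74 and a −log10 q of 17.8. A narrow region of 12 tags (6.20 to 21.0) stood 78 bp from it, at chr12:85455008-85455108. The most distant, at chr12:85436148-85436295, lay 37.6 kb upstream with 10 tags (4.80 to 18.4). The intervals of all 5 overlap, while the lower bound of 17.0 at 18.5 kb stayed above the 10 to 14 tags of the others. The order of the pileups was not tested.

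The 3 distal Fos regions lay inside loci annotated as long non-coding RNA genes, Gm38543 for the pair at 18.5 and 18.8 kb and Gm40477 for that at 37.6 kb, the last with its summit 185 bp from an end of Gm40477. No other protein-coding gene has an end within 50 kb of Fos, and for 4 regions outside protein-coding genes Fos was the nearest such gene. Of all protein-coding genes, 14 (0.064%) had 4 or more of these, among them Zfp825 with 7 and Mid1 with 4. The 4 of Fos include 2 that lie 78 bp apart, with a −log10 q of 17.8 and 3.91. The other 2 had 4.93, at 37.6 kb upstream, and 6.8, at 1610 bp upstream. With regions closer than 500 bp joined, Fos had 3 and 28 genes (0.128%) had as many. At a −log10 q of at least 5 it had 2 and 98 genes (0.448%) had as many. Among the other 2565 genes with no other protein-coding gene end within 50 kb, the median number of Otp regions within 50 kb was 0 (interquartile range 0 to 1), and 16 (0.624%, 95% exact interval 0.357 to 1.01%) had at least 5. With regions joined, 1.48% had at least the 4 of Fos. Among regions with a −log10 q from 5 upwards, 2.11% had at least its 3. The shortest of those 16 was Snx6 at 49.4 kb and the longest Cntnap2 at 2241 kb, and a long gene spans more sequence to hold a region than the 3.38 kb of Fos. Setting Fos beside genes without neighbours was decided after its values were seen. The region at its start, known when Fos was chosen, is among its 5, while the other genes were not chosen for one.

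Fosb (gene ID 14282, chr7:19302696-19310118, reverse strand), which encodes the Fos protein known for a stable truncated form that accumulates under repeated stimulation, had no Otp region within 1 kb of an end. It had 1 inside the gene, at chr7:19308538-19308775, with the summit 1413 bp downstream of the RefSeq start. This region had 19 tags (11.4 to 29.7), a fold enrichment of 7.89 and a −log10 q of 11.3, more tags than the region at the Fos start, with intervals that overlap. The other 2 regions within 50 kb belonged by position to neighbours: one of 10 tags lay 79 bp from an end of Rtn2, a reticulon gene, and one of 17 tags inside Ercc1, a DNA repair gene.

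Fosl1 (gene ID 14283, chr19:5447698-5455938), which encodes Fra-1, had no region inside it or at an end. It lies among genes, with 20 ends of other protein-coding genes within 50 kb, and the 2 Otp regions there were at such ends. One lay 42 bp from an end of Drap1, a transcriptional corepressor subunit, 22.7 kb from Fosl1, and had 30 tags (20.2 to 42.8) and a fold enrichment of 12.4, the highest of the 20 regions. The other, of 15 tags, lay 812 bp from an end of the nuclease gene Mus81. Fosl2 (gene ID 14284, chr5:32136472-32157840, forward strand), which encodes Fra-2 and is the longest member at 21.4 kb, had no Otp region within 50 kb, and its nearest lay 100486 bp away. Like Fos it has no other protein-coding gene end within 50 kb. Of the other such genes, 63.4% also had 0 Otp regions there.

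Jun (gene ID 16476, chr4:95049036-95052222, reverse strand), which encodes the core Jun partner of AP-1, had a single Otp region within 50 kb, at its start. It covered chr4:95052226-95052492, with the summit 92 bp upstream, 28 tags (18.6 to 40.5), a fold enrichment of 10.6 and a −log10 q of 20.2. It was the highest of the 4 member-end regions in tags, fold and −log10 q, and ranked 1317 of 11379 in the Otp list by −log10 q. Its lower tag bound of 18.6 stayed above the 12 tags at the ends of Junb and Jund and the 14 at Fos, whose own intervals reach 21.0 and 23.5. The summit lay 3 bp from an end of Junos, a long non-coding RNA gene beside Jun. The region crosses that end and cannot be given to either gene. Jun thus differs in layout from Fos: neither has another protein-coding gene end within 50 kb, but Jun had 1 region at the start and no distal region, where Fos had 4 further ones. Of the other genes without neighbours, 23.3% had 1 region and 0.351% had 5.

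Junb (gene ID 16477, chr8:84976909-84978748, reverse strand), an early-induced Jun relative and the shortest member at 1.84 kb, had the most regions within 50 kb, 6. The region at its start, chr8:84978832-84978931, had the summit 155 bp upstream with 12 tags (6.20 to 21.0), a fold enrichment of 4.43 and a −log10 q of 3.52, close to the lower limit of the list, which is 2.01. A second region at chr8:84980015-84980088, 1297 bp upstream and so just outside the limit of 1 kb, had 15 tags (8.40 to 24.7) and a fold enrichment of 5.48. The remaining 4 lay at other genes. Those inside Rnaseh2a and Hook2 had 17 tags each, that near Get3 had 16 and that inside Mast1 had 10. Around Junb there are 14 ends of other protein-coding genes, against a median of 6 for its length class.

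Jund (gene ID 16478, chr8:70697739-70700616, forward strand), the most constitutively expressed Jun gene, had its region at the far end. It covered chr8:70700638-70700716, with the summit 48 bp beyond the 3′ end, 12 tags (6.20 to 21.0) and a fold enrichment of 4.33, the lowest of the 20. No region overlapped the window at the annotated start. Another region lay inside the gene at chr8:70698770-70698892, with the summit 1081 bp downstream of that start and 14 tags (7.65 to 23.5). RefSeq lists 2 transcripts for Jund and the promoter table holds 1 window. One more region, of 24 tags (15.4 to 35.7), lay 24.5 kb upstream of the start and 8 bp from an end of Lsm4, an RNA-binding protein gene. The nearest IgG region to any member was also near Jund, 53.9 kb away by an end of Rab3a, just outside the limit of 50 kb. It had 7 tags (2.81 to 14.4) and lay within an Otp region of 24 tags, 54.0 kb from Jund. Just inside the limit was the region by Get3, 46.8 kb from Junb. For the other 6 members the nearest IgG region was 642 to 25620 kb away.

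By the highest pileup at an end of or inside the gene, Jun, at 28 tags, and Fosb, at 19, were followed by Fos and Jund at 14 and by Junb at 12, and the intervals of neighbours in this order overlap. The IgG library had the lower background, taken as the lowest local background that recurred among the solved regions of each list. It was 0.512 tags in the Otp library and 0.0873 in the IgG library, a ratio of 5.87. No genome-wide value or total depth is given, so this ratio only stands in for a difference in depth. By that ratio the smallest pileup in the IgG list, 4 tags, corresponds to 23.5 Otp tags, and 4 of the 20 regions reached it: those at the Jun start, at 18.5 kb upstream of Fos, by Drap1 and by Lsm4. Scaled instead by 0.305, the median of IgG over Otp tags at 226 regions found in both lists, it corresponds to 13.1 tags, which 13 of the 20 reached. That ratio comes only from regions called in the IgG library, where IgG signal is high by selection, so it is the more lenient of the scalings. At the Fos start, 14 tags scale to 2.39 IgG tags by the first ratio and 4.27 by the second. Inside Fosb, 19 tags scale to 3.24 and 5.8. Both regions thus fall under the smallest IgG pileup by the first ratio and pass it only by the more lenient one. The regions at the ends of Junb and Jund fall under it by both. For a region under it, a difference from IgG was not detectable at this depth.

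**Figure D2:**
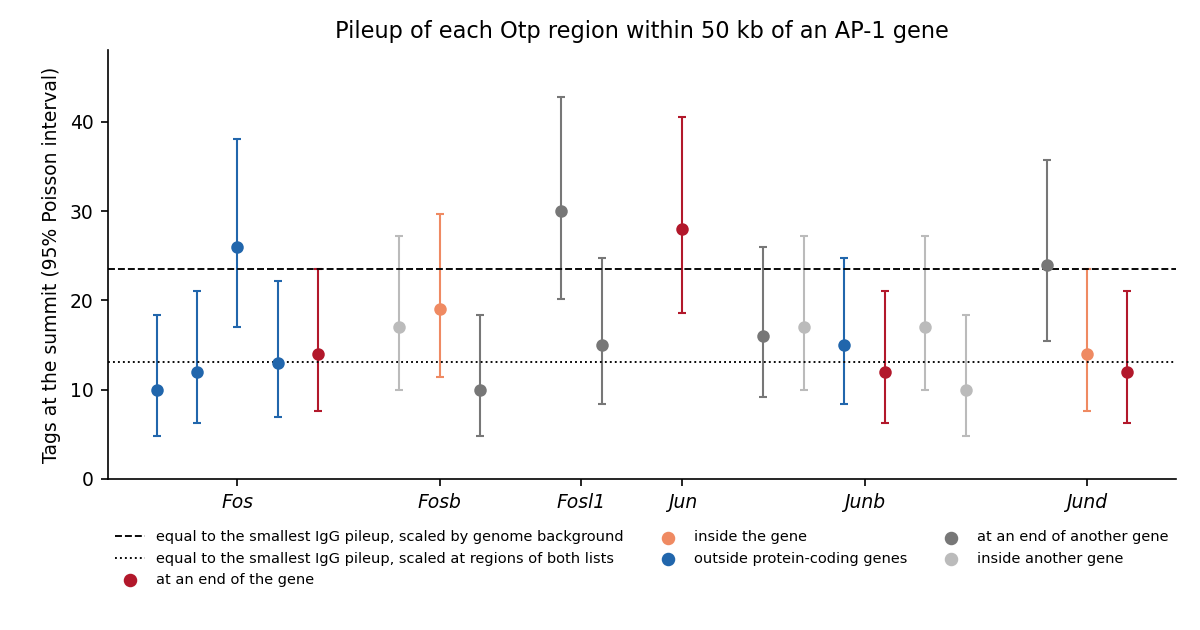
Pileup at the summit of each of the 20 Otp regions, ordered along each gene from upstream to downstream (Fosl1 in genome order). Points are tags in the 1 Otp library, bars are 95% Poisson intervals that cover counting error only, colours give the place, and the lines mark 23.5 and 13.1 tags, which scale to the smallest IgG pileup. The regions at the Jun start (28 tags), 18.5 kb upstream of Fos (26), by Drap1 (30) and by Lsm4 (24) lie above both lines.

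Gene length classes give the setting for these numbers. Fos, Jun, Junb and Jund share a class of genes from 1542 to 4168 bp, in which 19.6% (18 to 21.3%) of the other 2188 genes had at least 1 Otp region at an end. Within 50 kb the median was 1 region (interquartile range 0 to 2) in each of the 3 classes that hold a member. In the class of Fos, 4.02% (3.24 to 4.93%) of the other genes had at least its 5 regions, and 1.10% (0.704 to 1.63%) had at least the 6 of Junb. For Jund, with 3, the share was 19%, and for Jun, with 1, it was 54.9%. Fosb, with 3, was matched or passed by 22.1% of its class and Fosl1, with 2, by 41.6%. Among genes of the same length class and the same quintile of neighbouring gene ends, 0 of 439 had as many regions as Fos (up to 0.837% by an exact interval), against 3.00% (1.87 to 4.56%) of 699 for Junb and 50.3% of 571 for Fosb. With regions closer than 500 bp joined, Fos had 4 and the share of its class rose to 7.08%, while that of Junb was 0.686%. Restricted to a −log10 q of at least 5, the shares were 12.6% for Fos and 5.85% for Junb. The set matched on neighbouring gene ends was not counted again under either setting. Fos was chosen with its end region known, and that region is among its 5. The genes beside it were not chosen for such a region, so these shares do not measure how unusual Fos is.

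**Figure D3:**
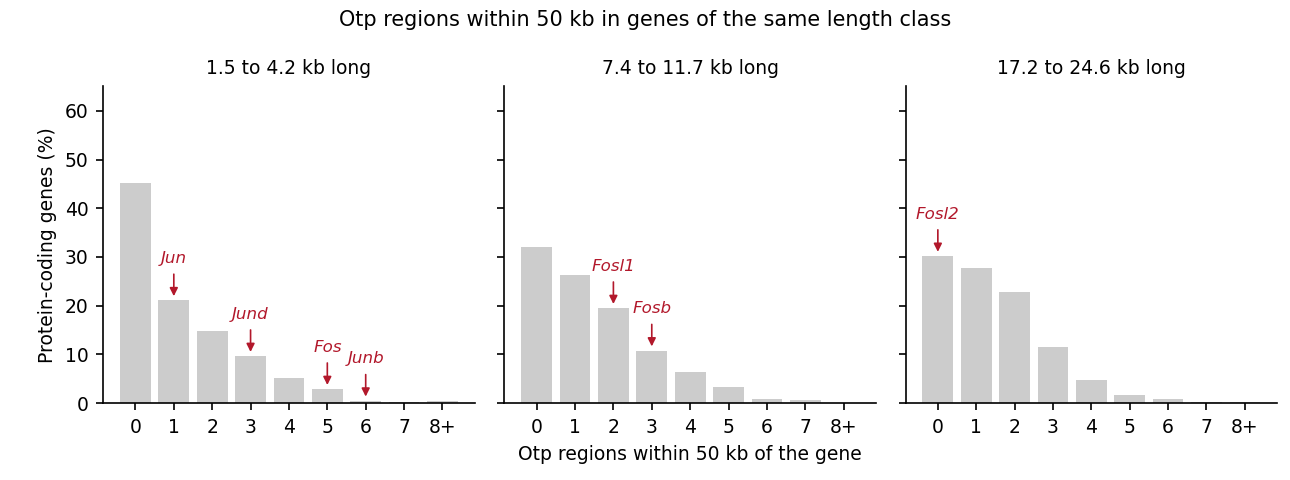
Number of Otp regions within 50 kb (x axis) against the percentage of protein-coding genes (y axis), in the 3 length classes that hold an AP-1 gene, members left out of the bars. Arrows mark the members. Fos with 5 and Junb with 6 stand in the right tail of the class of 1542 to 4168 bp, and Fosl2 is at 0.

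The number of CpG dinucleotides in a promoter window, which is high at promoters active in many tissues, differed between windows with and without an Otp region, though not in 1 direction throughout. Of windows with 0 to 4 CpG, 0.961% lay under an Otp region, against 27.6% with 10 to 14 and 47.8% with 20 to 24. The share was 49.4% with 25 to 29 and lower, 37.0% (35.4 to 38.7%), with 30 or more, where Fosl2 falls. Fos (20 CpG), Junb (21) and Jun (15) are in the range where such regions are common. Among other windows within 2 CpG of each, 45.3%, 46.1% and 37.0% had a region. Fosb (25 CpG) and Fosl2 (32) had none over the window, although 49.6% and 42.9% of windows like theirs did. Jund, with 3 CpG in its window, falls where 1.51% (1.22 to 1.86%) had a region. Beside windows of like CpG number, a region at the start of Fos, Jun or Junb is thus common. For the 1 window held for Jund, the absence of a region is the usual state. RefSeq lists 2 transcripts for Jund, and a start elsewhere in the gene is not covered by this window. The Otp region inside Jund, 1081 bp downstream of the annotated start, lies outside it. The part that CpG number plays in these regions was not tested.

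**Figure D4:**
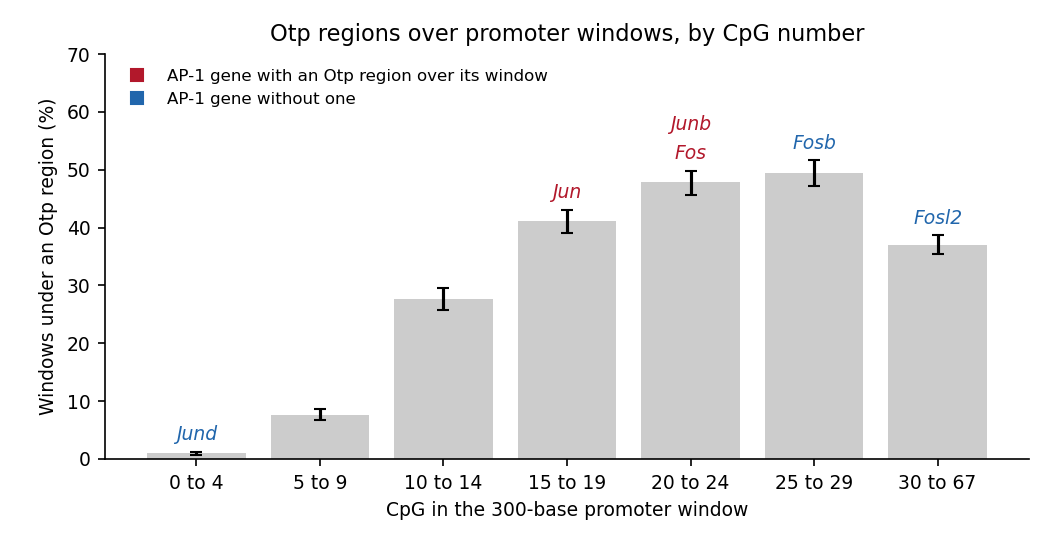
Percentage of promoter windows of protein-coding genes that overlap an Otp region (y axis, with exact 95% binomial intervals) by the number of CpG in the window (x axis). Names mark the 6 AP-1 genes with a window, red with an Otp region over it and blue without. Fos, Jun and Junb fall in bars of 41.1 to 47.8%, and Jund in that of 0.961%.

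Other genes of the AP-1 system were counted in the same way. Of 15 genes for other leucine zipper proteins that pair with Fos or Jun, 4 had an Otp region at an end (26.7%, exact interval 7.79 to 55.1%), beside 27.2% of all genes. They were Atf4, a stress-response factor, with a fold enrichment of 11.4 and 33 tags, Atf2, a target of stress kinases, with 11.3 and 35, Mafa with 8.57 and 13, and Atf7 with 8.54 and 21. Beside these stand the 10.6 and 28 tags at the end of Jun and the 6.90 and 14 tags at Fos. Junb had 4.43 and 12 tags and Jund 4.33 and 12, both lower than at any of these partner genes. Of 28 genes for kinases, factors and coactivators that act on Fos and Jun, 15 had one (53.6%, 33.9 to 72.5%), beside 30.9% as the mean over their length classes. Led by Rps6ka5 (MSK1, a kinase of histone H3 and CREB) with a fold enrichment of 13.6 and 41 tags, they included Mapk9 (the kinase JNK2, which phosphorylates Jun) with 13.1 and 34, Mrtfa (a coactivator of serum response factor) with 12.9 and 31, and Mapk8 (JNK1) with 9.58 and 24. No gene of either group had an IgG region at an end, against 0.379% of all genes, so low that this says little. The shares of both groups are descriptions of 1 peak list and were not set beside those of windows of like CpG number. Of 8 genes that mark PVN neurons, 4 had such an Otp region (exact interval 15.7 to 84.3%, beside 22.9% as the mean over their length classes). Of the 3 genes each that mark oligodendrocytes, astrocytes and microglia, 1, 0 and 0 had one, with intervals of 0.84 to 90.6% for the first and 0 to 70.8% for the others, beside 31.1%, 31.5% and 26.6%. Every one of these intervals holds the share of its length classes, so the counts show no contrast between neurons and glia. A region marks cutting at a gene and not its expression.

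For each member with a region at an end, the genes most alike in counts were sought in the same length class. They had equal numbers of Otp regions at an end and within 50 kb and the nearest −log10 q at the end. The place of the other regions and the neighbouring genes were not matched. For Fos these were Cdk5r1 (7.94, beside 7.81) and Rps18 (8.22), out of 30 with equal numbers. Neither is among the 14 genes with 4 or more flanking regions outside genes. Neither is among the genes without neighbours that had at least 5 regions, so they do not share the layout of Fos. For Jun they were Gm30447 (20.1, beside 20.2) and 4930563E22Rik (19.1), out of 94. For Junb they were Naa80 and Tpi1, out of 4, and for Jund Amh and BC031181, out of 92. Since this likeness rests on 1 library, it says only that the counts and the −log10 q are alike at these genes.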

How the data were processed

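The authors deposited 1 peak list per library. Trimmomatic, Bowtie2, Picard, SAMtools, MACS2 and the build mm10 are named per the submitters' processing notes; neither versions and settings nor the handling of duplicates nor the use of a control is given in the sources used here. Values deposited by the authors are the fold enrichment and the −log10 of p and q. The fold was taken as pileup plus 1 over local background plus 1. The deposited display score was not used. Total depth is unknown. Pileups (whole tags) were solved from the deposited fold and −log10 p by the MACS2 formulas, accepted when a whole number matched within 0.001 and the next missed by over 0.005. This gave a value for 98.3% of Otp and 90.0% of IgG regions. The solver was tried on simulated data made with the same formulas, which cannot show that the deposited values follow them. The simulated pileups did not reach down to the 4 tags of the smallest IgG pileup. Intervals are 95% exact Poisson or binomial intervals and cover counting error only.

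Gene ends came from a RefSeq table of GRCm38.p6, the assembly of mm10, starts and strands from its promoter table. Length classes are 10 equal groups of genes. The named genes are all members, genes at their regions, and up to 4 per list by fold. Members, lists and rules were chosen with earlier results of these data known. The search for TGACGT, the CpG counts, the counts of regions flanking Fos, the joining of regions and the genes without neighbours were added after values were seen. No test across samples was possible with 1 library per antibody. Python 3.11.15, numpy 2.4.6, pandas 2.3.3, scipy 1.17.1 and matplotlib 3.10.9 were used.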

Additional observations from a re-analysis of the deposited data

How the results depend on the processing

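The count of 4 AP-1 genes with an Otp region at an end fell to 2 (Fos and Jun) when regions needed a −log10 q or a fold enrichment of 5, and to 1 (Jun) when they needed a −log10 q of 10. It was 4 with a window of 500 bp or with any base of the region counted, and 5 with 5 kb, which added Fosb. The 20 regions within 50 kb became 5 with a −log10 q of 10 required and 34 within 100 kb, and the 0 IgG regions became 1 within 100 kb. The overlap with IgG, 0 as counted, is near what the 2.46% of the whole list would give. It was also 0 when an IgG summit within 500 bp was counted. A reciprocal overlap of 50% and a −log10 q of 10 are stricter rules that could only give 0 again. With a −log10 q of 10 required, the regulator genes with a region at an end fell from 15 to 9. The share of all genes fell from 27.2% to 13.4%. The share of length-matched genes with a region at an end, 26.7% over the 3 classes, was 23.0%, 13.1% and 25.1% at the stricter limits in the order −log10 q of 5, of 10 and fold of 5, 24.5% within 500 bp, 34.3% within 5 kb, 23.6% among the 500 genes nearest in length and 23.9% when also matched on neighbouring gene ends. The median over members of the share of length-matched genes with as many regions, 22.1%, was 24.2% at 25 kb, 11.1% at 100 kb, 18% over all genes, 20.3% when matched on neighbours, and 26.6% among regions with a −log10 q from 5 upwards. Stricter limits leave fewer regions and wider windows take in more; beyond that the cause was not tested. Total depth is unknown and the IgG library's low background limits comparison at regions of few tags. No paired analysis was possible because each antibody has 1 library, so leaving out a library was not possible either. The sequence of the distal regions was not analysed here.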
